A study of Mus musculus with 2 samples.

Results

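The 10 genes described here encode subunits of the AP-1 transcription factor and close companions among the immediate early genes. They are Fos, Fosb, Jun, Junb, Jund, Egr1, Atf3, Ier2, Dusp1 and Zfp36, taken by name from the 32285 genes of the count matrices. All 10 were found in both libraries. CD45+ live cells, the leukocytes, were sorted from the adrenal glands of C57BL/6 mice aged 7 weeks, with 1 library from female and 1 from male mice, and counted by droplet 3' sequencing. The labels name no transgene, deletion or treatment for either library. The number of animals behind each library is not given in the sources used here. The glands had been digested with Liberase and DNAse I for 30 minutes at 37 °C before sorting. No library from undigested tissue is part of the design, so the level of these genes in the gland and their induction during digestion cannot be told apart.

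AP-1 is a dimer of one FOS, JUN or ATF family protein with another, and it binds short palindromic DNA sites. The transcripts of immediate early genes appear within minutes of a stimulus, without new protein synthesis, since the factors that act at their promoters (SRF, CREB and the ETS proteins) are already in the cell and are activated by kinases. The response also carries its own brakes. Dusp1 encodes a phosphatase that inactivates p38 and JNK kinases, and Zfp36 encodes tristetraprolin, which leads AU-rich mRNAs to decay. In leukocytes these genes accompany adhesion, activation and cytokine production, and they are known to be induced when tissues are dissociated with enzymes.

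The starts of the member genes are shown first, since factors that kinases activate, such as those named above, bind short sites of this kind. The RefSeq promoter table (GRCm38.p6) held 8 of the 10 members, and Egr1 and Ier2 were not in it. The Jund window of that table, chr8:70697489-70697738, lies upstream of the Jund gene of the annotation given below and was searched but is not printed. In the 250 bases before the start, both strands were searched for fixed letters. The full cyclic AMP response element (CRE) TGACGTCA lay in 1 member, Dusp1, and in 1.55% of the 32851 promoters of the table. Its core TGACG, which the full element contains, lay in 5 members (Fos, Fosb, Junb, Atf3 and Dusp1) and in 17.8% of promoters. The AP-1 site TGAGTCA lay in no member and in 4.46% of promoters, and the longer AP-1 site TGACATCA lay in Jun and in 2.93%. The Egr site GCGGGGGCG lay in Fosb and Zfp36 and in 2.57% of promoters, the CArG box bound by SRF in Zfp36 and in 1.47%, the TATA box TATAAA in Fos and in 12.4%, and the GC box GGGCGG in 6 members and in 32.7%. A match says only that these letters occur in the window. The whole window is printed for 3 members, Fos (chr12:85473640-85473889, plus strand), Jun (chr4:95052223-95052472, minus strand) and Junb (chr8:84978749-84978998, minus strand), 5′ to 3′ in the direction of the gene. Capitals mark TGACG and TATAAA in Fos, TGACATCA in Jun and TGACG in Junb.
Fos: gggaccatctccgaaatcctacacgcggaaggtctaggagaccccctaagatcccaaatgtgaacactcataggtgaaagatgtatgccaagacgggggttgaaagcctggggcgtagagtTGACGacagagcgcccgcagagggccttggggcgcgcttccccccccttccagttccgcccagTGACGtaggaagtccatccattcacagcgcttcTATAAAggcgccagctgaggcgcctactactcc
Jun: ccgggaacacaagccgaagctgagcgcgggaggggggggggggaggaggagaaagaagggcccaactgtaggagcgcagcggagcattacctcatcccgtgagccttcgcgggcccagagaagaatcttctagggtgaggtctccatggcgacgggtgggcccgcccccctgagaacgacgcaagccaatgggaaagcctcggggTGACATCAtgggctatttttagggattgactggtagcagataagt
Junb: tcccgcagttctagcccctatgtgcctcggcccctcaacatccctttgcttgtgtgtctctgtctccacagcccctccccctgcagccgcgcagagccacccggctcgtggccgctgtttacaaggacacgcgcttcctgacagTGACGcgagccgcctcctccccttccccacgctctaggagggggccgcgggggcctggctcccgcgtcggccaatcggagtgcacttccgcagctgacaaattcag

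For 4 other members, stretches of 30 bases around chosen matches are shown in the direction of the gene, all on the minus strand, with the matched letters in capitals. The Dusp1 stretch at chr17:26508597-26508626 holds the full CRE, 143 to 136 bases upstream of the RefSeq start, and a separate match of the core, 191 to 187 bases upstream, is not shown. The Fosb stretches at chr7:19310088-19310117 and chr7:19310076-19310105 hold the CRE core and the Egr site and overlap each other. The Atf3 stretch at chr1:191183334-191183363 holds the CRE core on the opposite strand, 7 to 3 bases upstream. The Zfp36 stretches at chr7:28379314-28379343 and chr7:28379267-28379296 hold the Egr site and the CArG box. The stretches of Dusp1, Atf3 and Zfp36 lie upstream of their RefSeq starts but inside these genes as the annotation given below has them, since it begins each gene farther upstream.
Dusp1, CRE: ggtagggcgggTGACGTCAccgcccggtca
Fosb, CRE core: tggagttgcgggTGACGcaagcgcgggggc
Fosb, Egr site: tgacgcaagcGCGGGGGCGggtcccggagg
Atf3, CRE core: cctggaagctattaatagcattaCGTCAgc
Zfp36, Egr site: gagctacgccGCGGGGGCGcgtcccggaag
Zfp36, CArG box: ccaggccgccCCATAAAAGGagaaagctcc

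In the GENCODE M21 annotation of GRCm38, Fos lies at chr12:85473890-85477273 and Fosb at chr7:19302696-19310051. Jun lies at chr4:95049034-95052222, Junb at chr8:84974484-84978718 and Jund at chr8:70698949-70700616. Atf3 lies at chr1:191170296-191218039, Ier2 at chr8:84661331-84662852, Dusp1 at chr17:26505590-26562128 and Zfp36 at chr7:28376784-28380253. Dusp1 is the uncertain count among them, because 2 annotated genes, AC122252.1 and AC122252.4, overlap it on its own strand. Jun, Junb, Jund, Atf3 and Zfp36 overlap a gene on the other strand only (Junos, Prdx2, Gm11175, Gm24748 and Gm44710). Fos, Fosb, Egr1 and Ier2 overlap no annotated gene.

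The female library held 16218309 UMIs (unique molecular identifiers, counts of captured transcripts) over 3963 barcodes and the male library 9512670 over 2685, and 3694 female and 2449 male cells were kept. The libraries shared 2 barcodes. Cells were assigned to 11 classes by marker genes, 9 of which had at least 20 cells in both libraries and were compared, while 10.2% of female and 10.5% of male cells met no gate. In order of female and male cells these were macrophages (851 and 906), monocytes (191 and 117), dendritic cells (64 and 53), neutrophils (47 and 53), B cells (520 and 266), T cells (705 and 384), NK cells (805 and 323), type 2 innate lymphoid cells (ILC2, 54 and 33) and endothelial cells (39 and 42). The genes that led each class held markers of that class and none of another class's gate, such as C1qa, C1qb and C1qc in macrophages and S100a8, S100a9 and Retnlg in neutrophils. The classes were rebuilt here from these gates. ILC2 was the weakest of them, with Gata3 and Il2ra among its leading genes but also Tcrg-C1, a gene of gamma delta T cells, and monocytes had Nr4a1, itself an immediate early gene, among theirs. Median UMIs per cell were lowest in neutrophils, at 1649 and 1651, and lay between 1784.5 and 5089.5 in the other classes compared. Levels are given as counts per 1000000 UMIs of the class (CPM), first female and then male, with exact Poisson 95% intervals in parentheses. These intervals cover counting error only. With 1 library per sex there were no replicates and no test, and a class was called higher or lower only where it was past 2-fold in both libraries on the log2(CPM + 10) scale.

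Neutrophils carried far more of these transcripts than any other class. The 10 genes together made up 3.08% (2.96 to 3.20) and 3.57% (3.45 to 3.69) of neutrophil UMIs in the female and the male library (exact binomial 95% intervals). Of the 9 classes compared, monocytes followed at 0.414% (0.398 to 0.431) and 0.520% (0.497 to 0.543), then ILC2 at 0.378% (0.348 to 0.410) and 0.310% (0.277 to 0.346) and dendritic cells at 0.313% (0.295 to 0.333) and 0.325% (0.303 to 0.347). Macrophages held 0.143% (0.139 to 0.147) and 0.184% (0.179 to 0.189), between B cells at 0.197% (0.190 to 0.203) and 0.223% (0.212 to 0.234) and NK cells at 0.136% (0.132 to 0.140) and 0.168% (0.162 to 0.174). Endothelial cells at 0.123% (0.105 to 0.145) and 0.151% (0.130 to 0.175) and T cells at 0.108% (0.104 to 0.111) and 0.126% (0.121 to 0.132) held the least. The order of neutrophils, then monocytes, ahead of macrophages and lymphocytes other than ILC2 was the same in both libraries.

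The difference was also present cell by cell once depth was equalised. Each cell was thinned to 1000 UMIs, which left out 7 female and 10 male neutrophils and 73 and 150 macrophages. The median neutrophil held 32.5 female and 43 male UMIs of the 10 genes, with single cells between 1 and 67 and between 2 and 73. No neutrophil drawn was without one (0 of 40 and 0 of 43 cells). The median monocyte held 3 in both libraries, the median ILC2 4 and 2, the median dendritic cell 1 and 2, and the median macrophage, T cell and endothelial cell 1. Cells with none were 40.2% and 38.2% of macrophages, 40.4% and 34.1% of T cells and 13.2% and 15.8% of monocytes. Within neutrophils the sum was higher in cells with fewer UMIs before thinning, with a correlation with log2 UMIs of -0.61 over 40 female cells and -0.57 over 43 male cells, which share a library and a class. Its part in the neutrophil level was not tested. With neutrophils under 1000 UMIs left out, an alternative chosen after seeing the data, all 10 genes were still highest in neutrophils. Without the 5 cells holding most UMIs of each gene, 8 were. The share of all genes highest in neutrophils is not given here, so these counts describe the order of classes only. The correlation with the mitochondrial share of UMIs was 0.37 and 0.09 in neutrophils. In macrophages these correlations were -0.06 and -0.03 with log2 UMIs and 0.05 and 0.06 with the mitochondrial share.

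**Figure D1:**
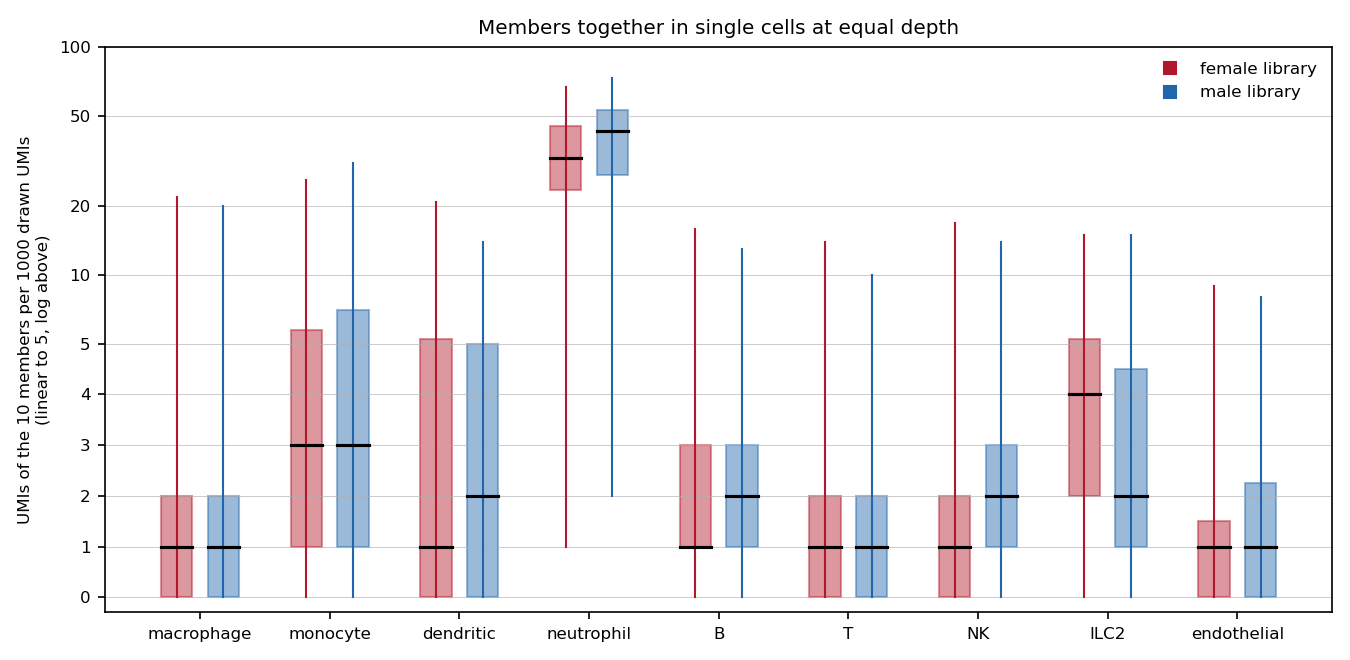
Summed UMIs of the 10 genes among 1000 UMIs drawn from each cell, by cell class, for the female and the male library. Neutrophils reach medians of 32.5 and 43 UMIs, while the medians of the other classes lie between 1 and 4.

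Fos encodes the AP-1 partner that cannot pair with itself and needs a JUN protein. In neutrophils it reached 6638.5 (6095 to 7217) and 7385.5 (6859 to 7942) CPM in the female and the male library. Monocytes followed at 906 (831 to 987) and 1269 (1159 to 1385.5), dendritic cells at 483 (412 to 563) and 668.5 (574 to 774) and ILC2 at 498 (394 to 622) and 275 (184 to 395). These classes all lay above macrophages in the female library, while ILC2 at the male level of 275 lay within counting error of macrophages. Macrophages held 161 (148 to 175) and 298 (279 to 318), B cells 109.9 and 101, endothelial cells 56.1 and 50.3, NK cells 26.6 and 49.96 and T cells 34.8 and 41.6. Of the 8 steps between neighbours in this order, 3 were larger than counting error in both libraries, namely neutrophil to monocyte, monocyte to dendritic cell and macrophage to B cell. With 1000 UMIs drawn per cell, Fos was detected in 92.5% and 95.3% of neutrophils, 34.5% and 36.0% of monocytes, 9.13% and 14.7% of macrophages and 2.39% and 3.74% of NK cells, against 20.2% and 24.4% of macrophages before thinning.

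Fosb, a second FOS family gene, followed another order below the neutrophils. Its neutrophil level was 519 (376 to 699) and 1035 (844 to 1256) CPM, and the ILC2 level was 275 (199 to 370.1) and 171 (101 to 269.8). B cells held 103 (88.3 to 119) and 79.9 (60.5 to 103.5) and monocytes 59.5 (41.5 to 82.8) and 110.2 (79.8 to 148.4). The B cell level lay above the monocyte level beyond counting error in the female library and within it in the male library. Macrophages at 17.2 (13.1 to 22.1) and 34.0 (27.8 to 41.2) and T cells at 21.1 (16.3 to 26.8) and 26.3 (18.8 to 35.6) were the lowest classes by the mean of both libraries and could not be separated, while endothelial cells stood at 48.1 (17.6 to 105) and 16.8 (2.03 to 60.6) from 6 and 2 UMIs. Only the step from neutrophils to ILC2 was apart in both libraries. Among 43 female and 18 male Fosb UMIs of ILC2, 62.8% and 88.9% came from the 5 cells with the most.

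The 3 JUN genes differed from each other in how far the classes stood apart. Jun, the founding member of the family, had no step between neighbouring classes past counting error in both libraries, and Atf3 was the other such gene. It stood at 289.7 (186 to 431) and 325 (222 to 458) CPM in neutrophils, 176.4 (163 to 191) and 231 (215 to 249) in macrophages, 184 (117 to 277) and 209.7 (136 to 309.6) in endothelial cells and 156 (126 to 192) and 169 (131 to 215) in monocytes. The lymphocytes were lower, with B cells at 92.0 and 54.7, NK cells at 56.3 and 62.2 and T cells at 42.1 and 47.4, apart from ILC2 at 57.5 (26.3 to 109) and 171 (101 to 269.8), whose male level was close to that of monocytes. Junb, an AP-1 subunit prominent in myeloid cells, was steeper. Its neutrophil level was 6119.5 (5598 to 6676) and 7741 (7201 to 8309.9), against 1009.5 (858 to 1179.8) and 702 (551 to 881) in ILC2 and 515 (459 to 577) and 823 (735 to 918) in monocytes. Macrophages at 164 (151 to 178) and 229 (212 to 246) lay below NK cells at 275 (259 to 292) and 347 (319.6 to 376) and B cells at 293 (268 to 319) and 379.8 (336 to 428), and endothelial cells were lowest at 88.2 and 117.4.

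Jund, the JUN gene known for steady expression in resting cells, was high in lymphocytes as well as in neutrophils. Neutrophils held 1714 (1444 to 2020.2) and 2283 (1994 to 2601) CPM, ILC2 1233 (1065 to 1419.9) and 1337 (1126 to 1577) and B cells 1053 (1006 to 1102) and 1177 (1099 to 1259.5). NK cells held 690.5 and 831, dendritic cells 699 and 672 and T cells 555 and 659.8, all above monocytes at 422 (371 to 477.6) and 479 (413 to 553) and macrophages at 333 (314 to 353) and 378 (357 to 401). Macrophages were thus below T cells for Jund, the reverse of the order for Fos and Jun. The Jund level of endothelial cells differed between the libraries, at 168 (104 to 257) and 469.8 (355 to 610.0).

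**Figure D2:**
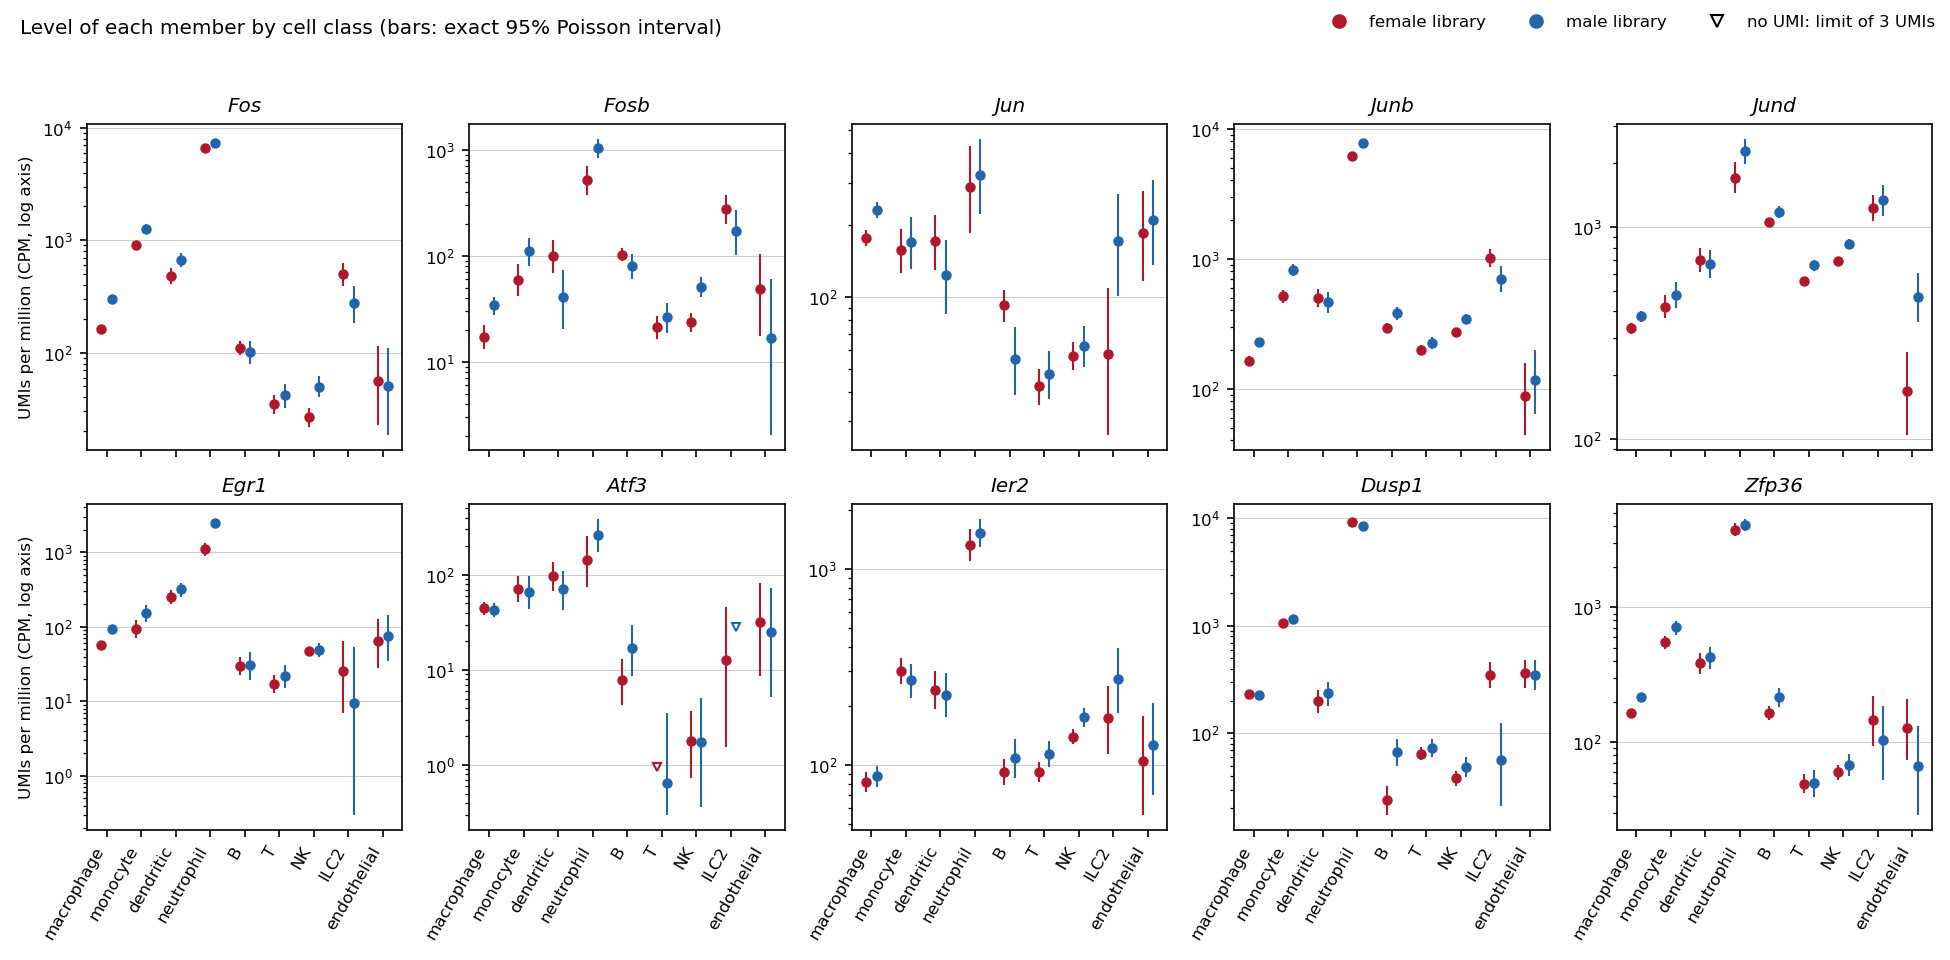
Level of each of the 10 genes in CPM (log axis) in 9 cell classes of the female and the male library, with exact Poisson 95% intervals; a value of 0 is drawn at the level of 3 counts. Neutrophils are the highest of these 9 classes for every gene. By the mean of both libraries, Jun and Jund are the genes with the smallest step to the next class.

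Egr1, a zinc finger factor that binds GC-rich sites, was high in neutrophils at 1098 (884 to 1348.6) and 2475 (2174.5 to 2806) CPM and next in dendritic cells at 253.5 (203 to 313) and 317.4 (254 to 392.5). Monocytes held 93.5 (70.4 to 122) and 151 (115 to 195) and macrophages 56.4 (48.7 to 64.9) and 93.998 (83.5 to 105.5). In lymphocytes Egr1 was lower by value, with 47.0 and 48.8 in NK cells, 30.3 and 30.8 in B cells and 17.2 and 21.8 in T cells. ILC2 held only 4 female and 1 male UMIs. By the mean of both libraries ILC2 were therefore second in the order for Fosb, Junb and Jund and last for Egr1. In the male library ILC2 lay below monocytes for Junb, at 702 against 823 CPM. In the female library they lay above T cells for Egr1, at 25.6 against 17.2.

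Atf3, an ATF family factor that pairs with JUN proteins and restrains inflammatory genes in macrophages, had the 4 myeloid classes at the top of its order. It stood in neutrophils at 145 (74.8 to 253) and 264 (172 to 386.5) CPM, dendritic cells at 97.3 (67.0 to 137) and 71.0 (42.7 to 111), monocytes at 71.4 (51.5 to 96.5) and 66.6 (43.5 to 97.6) and macrophages at 44.5 (37.7 to 52.1) and 43.1 (36.1 to 51.1). No neighbours in this order were apart in both libraries, and endothelial cells followed at 32.1 and 25.2. T cells held 0 UMIs among 705 female cells, which allows up to 0.957 CPM (3 counts), and 1 UMI among 384 male cells. T cells held more UMIs per cell than macrophages, with medians of 3921 and 3727.5 UMIs per cell against 3482 and 2472.5. The share of cells with an Atf3 UMI was 9.99% and 8.61% in macrophages against 0% and 0.260% in T cells. NK cells held 7 and 3 UMIs.

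Ier2, a short nuclear protein induced with the FOS genes, ran from 1328 (1091 to 1600.2) and 1532 (1297 to 1797) CPM in neutrophils through 301 (258 to 349) and 269 (220.1 to 326) in monocytes and 242 (192 to 300.0) and 228 (174 to 293) in dendritic cells to 81.4 (72.1 to 91.5) and 87.5 (77.4 to 98.6) in macrophages, the lowest class. NK cells at 139 (128 to 151.5) and 174 (155 to 195) lay above macrophages in both libraries. T cells at 91.9 (81.6 to 103) and 113 (97.3 to 131) were above macrophages by value, with overlapping intervals in both libraries. For Ier2, Fosb and Junb, macrophages were thus no higher than T or NK cells beyond counting error.

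The feedback genes Dusp1 and Zfp36 also led in neutrophils and monocytes. Dusp1 stood at 9197 (8556 to 9874) and 8562 (7994 to 9160.0) CPM in neutrophils. Monocytes held 1064 (983 to 1151) and 1151 (1047 to 1262), endothelial cells 361 (263 to 482.5) and 352 (254 to 476) and macrophages 233 (217 to 249.8) and 228 (212 to 246), and each step between these 4 classes was larger than counting error in both libraries. The step from neutrophils to monocytes was by far the widest of them. T cells at 64.8 and 73.7, B cells at 24.1 and 67.3 and NK cells at 38.2 and 48.8 were the lowest by the mean of both libraries. Zfp36 stood at 3766 (3359.5 to 4208) and 4099 (3709 to 4518) in neutrophils, 549 (491 to 612.5) and 709.9 (629 to 799) in monocytes, 386 (323 to 458) and 426 (351 to 511.5) in dendritic cells and 164 (150.4 to 178) and 216.5 (200.4 to 234) in macrophages. B cells at 164 (146 to 184) and 216 (183 to 253) matched macrophages within counting error, and T cells were lowest at 49.5 and 49.96.

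All 10 genes were past 2-fold higher in neutrophils than in the other classes in both libraries, taken as their mean of log2(CPM + 10), where 8.15% of the 9433 genes tested were. The differences ran from Dusp1 at 5.71 and 5.68 and Fos at 5.35 and 5.30 on the log2 scale (female and male) to Jun at 1.41 and 1.42 and Jund at 1.62 and 1.72. The median gene was lower in neutrophils by this measure, at -0.67 and -0.51 on the log2 scale, so the members' differences relative to it were larger still. Monocytes were higher for 4 genes, Fos at 2.13 and 2.45, Dusp1 at 2.23 and 2.43, Zfp36 and Atf3, against 6.66% of all genes. Dendritic cells were higher for 3, Egr1 at 1.77 and 1.83, Atf3 and Fos (3.04% of genes). ILC2 were higher for Fosb at 1.98 and 1.195 (4.18% of genes) and lower for Egr1 (4.29%). These calls rest on the log scale of that mean, on which the high neutrophil levels weigh less. Against the linear mean of the other classes, an alternative chosen after seeing the data, the 18 higher values became 10, all of them in neutrophils (6.67% of genes). No member was then higher in monocytes (3.74%), dendritic cells (1.57%) or ILC2 (2.52%). The 22 lower values became 48. The share of all genes lower by that mean is not given here, so the 48 is not read as a result about the members.

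T cells were lower for 8 of the 10 genes, all but Jund and Ier2, where 6.20% of genes were, with Fos at -2.77 and -2.76 and Zfp36 at -2.24 and -2.26. NK cells were lower for 5, Fos at -3.10 and -2.52, Dusp1 at -2.81 and -2.41, Zfp36, Atf3 and Jun (5.41% of genes), and B cells for 3, Dusp1 at -3.37 and -1.97, Egr1 and Fos (6.48%). Macrophages were lower for Fosb, Junb and Ier2 (1.95%) and endothelial cells for Fos and Junb (3.24%). Neutrophils weigh on these comparisons because they enter the mean of the others. With neutrophils left out, an alternative chosen after seeing the data, no member was lower in macrophages (2.29% of genes) and 1, Dusp1, was lower in B cells (6.49%), while T cells were still lower for 6 (6.02%) and NK cells for 4 (5.34%). ILC2 were then higher for 3, Fosb, Junb and Jund (3.40%), dendritic cells for 4 (2.94%), monocytes for the same 4 named above (7.08%) and endothelial cells for Dusp1 (9.77%).

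Set directly against macrophages, neutrophils were past 2-fold higher for 9 of the 10 genes, all but Jun, and 6.02% of 14026 genes with no filter on low counts were. Fos was higher by a ratio of 41.1 (36.5 to 46.4) and 24.8 (22.4 to 27.3) in the female and the male library, Dusp1 by 39.5 (35.7 to 43.6) and 37.5 (33.9 to 41.5), Junb by 37.3 (33.0 to 42.1) and 33.8 (30.5 to 37.5) and Fosb by 30.3 (19.9 to 45.6) and 30.4 (22.9 to 40.3) (exact 95% intervals of the ratio). Jun differed by 1.64 (1.04 to 2.47) and 1.40 (0.952 to 2.00). All 6 adrenal medulla markers were at 0 in neutrophils of both libraries, and the summed level of 10 cortex markers was 217 and 193 CPM there against 312 and 313 in macrophages, 56.5 and 67.3 in T cells, 59.7 and 48.8 in NK cells and 80.7 and 85.5 in B cells. Endothelial cells, which are not leukocytes, held the most of the 9 classes, at 2709 and 889 CPM of the cortex markers. The part of these transcripts in the members' levels was not tested. At least 6 of 8 endothelial markers were at 0 in neutrophils. The neutrophil genes S100a8 and S100a9 summed to 18.8 and 24.3 CPM in T cells, 21.2 and 25.9 in macrophages and 164285 and 119558 in neutrophils.

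Monocytes were past 2-fold higher than macrophages for 6 genes in both libraries, against 2.81% of all genes. These were Fos, with a ratio of 5.62 (4.98 to 6.34) and 4.25 (3.81 to 4.75), Dusp1 at 4.57 (4.11 to 5.08) and 5.04 (4.47 to 5.68), Junb at 3.14 (2.72 to 3.61) and 3.60 (3.14 to 4.11), Ier2 at 3.70 and 3.07, Zfp36 at 3.36 and 3.28 and Fosb at 3.47 and 3.24. Jun was not higher in monocytes, at 0.887 (0.704 to 1.11) and 0.731 (0.559 to 0.941). Dendritic cells were higher than macrophages for 3 genes (1.49% of genes), Egr1 at 4.50 (3.45 to 5.82) and 3.38 (2.62 to 4.31), Fos at 3.00 and 2.24 and Ier2 at 2.97 and 2.60. Macrophages in turn were higher than T cells for 6 (7.86% of genes), namely Atf3, Fos at 4.64 (3.77 to 5.75) and 7.16 (5.57 to 9.36), Jun at 4.19 (3.47 to 5.10) and 4.88 (3.84 to 6.29), Egr1 at 3.27 and 4.32, Dusp1 at 3.60 and 3.10 and Zfp36 at 3.31 and 4.33. Jund was lower in macrophages than in T cells, at 0.6001 (0.557 to 0.647) and 0.573 (0.527 to 0.624), though not past 2-fold.

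Among lymphocytes, no member differed past 2-fold in both libraries between NK cells and T cells on the log2(CPM + 10) scale (1.49% of all genes were higher, and 1.85% of those with at least 50 UMIs lower). By plain CPM, Egr1 was past 2-fold higher in NK cells, at 47.0 and 48.8 against 17.2 and 21.8, a difference that the added 10 CPM makes smaller. The NK to T ratio was 1.24 (1.17 to 1.32) and 1.26 (1.16 to 1.37) for Jund, 1.38 (1.246 to 1.52) and 1.53 (1.34 to 1.75) for Junb and 0.590 (0.474 to 0.733) and 0.662 (0.494 to 0.885) for Dusp1. B cells were higher than T cells for 3 (2.91% of genes), Fos at 3.16 (2.49 to 4.03) and 2.42 (1.71 to 3.44), Fosb at 4.87 (3.66 to 6.56) and 3.04 (2.00 to 4.66) and Zfp36 at 3.32 (2.73 to 4.06) and 4.32 (3.27 to 5.75). ILC2 were higher than T cells for 4 (3.28% of genes), Fos at 14.3 (10.6 to 19.3) and 6.61 (4.11 to 10.4), Fosb at 13.05 and 6.50, Junb at 5.05 (4.21 to 6.02) and 3.10 (2.38 to 4.00) and Jund at 2.22 and 2.03. Within T cells, gamma delta cells were higher than CD8 cells for Dusp1, at 5.49 (3.35 to 9.25) and 7.24 (3.70 to 15.5) (1.30% of genes), from 126 and 155 CPM against 22.9 and 21.5. CD4 and CD8 cells did not differ past 2-fold for any member (0.672% of genes were higher in CD4 cells). Only 2 of the 10 members had at least 50 UMIs in CD4 or CD8 cells of each library. The others were too sparse for a 2-fold difference to be read. Conventional and ILC1-like NK cells did not differ past 2-fold for any member either, with 6 members at that count (0.544% of genes were higher in conventional cells). Junb was closest there at 1.89 (1.63 to 2.19) and 2.07 (1.71 to 2.53).

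Macrophages were not uniform. Of 851 female and 906 male macrophages, 78 and 135 met the Lyve1-high gate (Lyve1, Folr2, Cd163 and others), 70 and 115 the Aldh1a2-high gate (Aldh1a2, Retnla, Fn1 and others), and the rest were split by their MHC class II transcripts into 158 and 24 low and 490 and 516 high cells. The remaining 55 and 116 cells had under 1000 UMIs or tied between the gates. Fos stood at 653 (551 to 768.5) and 609.8 (527.4 to 701.4) CPM in Lyve1-high cells and at 111 (97.4 to 126) and 140.2 (125 to 157) in MHC class II high cells, with no overlap. Fosb stood at 117 (76.5 to 172) and 131 (94.2 to 177) against 5.15 (2.57 to 9.22) and 7.55 (4.32 to 12.3), and Egr1 at 302 (234 to 383) and 274 (219.6 to 337) against 30.9 (23.9 to 39.3) and 52.4 (43.1 to 63.1). Fosb UMIs were thus rare in the largest macrophage subset, with 11 and 16 over 490 and 516 cells.

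Lyve1-high cells were past 2-fold higher than MHC class II high cells for 5 of the 10 genes in both libraries, against 3.35% of all genes. The ratio was 22.7 (10.8 to 51.0) and 17.3 (9.52 to 33.0) for Fosb, 9.76 (6.84 to 13.9) and 5.22 (3.90 to 6.97) for Egr1, 5.88 (4.75 to 7.26) and 4.35 (3.61 to 5.23) for Fos, 3.05 (2.39 to 3.87) and 2.46 (1.96 to 3.07) for Zfp36 and 2.66 (2.21 to 3.19) and 3.08 (2.64 to 3.59) for Jund. Jun and Atf3 did not follow, with ratios of 1.59 and 0.979 and 0.773 and 0.573. The Lyve1-high values rested on few cells, since 60% and 36.7% of Fos UMIs and 70.1% and 44.3% of Egr1 UMIs there came from 5 cells. The thinned shares showed the same direction, with Fos in 29.9% and 29.1% of Lyve1-high and 5.92% and 6.78% of MHC class II high cells, and Fosb in 8.96% and 8.55% against 0.612% and 0.775%. Lyve1-high cells were shallower, at medians of 2220.5 and 1984 UMIs against 3826.5 and 3403.5. At least 3 of the 10 genes were detected in 32.8% and 35.9% of Lyve1-high cells and in 5.31% and 8.53% of MHC class II high cells at equal depth.

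**Figure D3:**
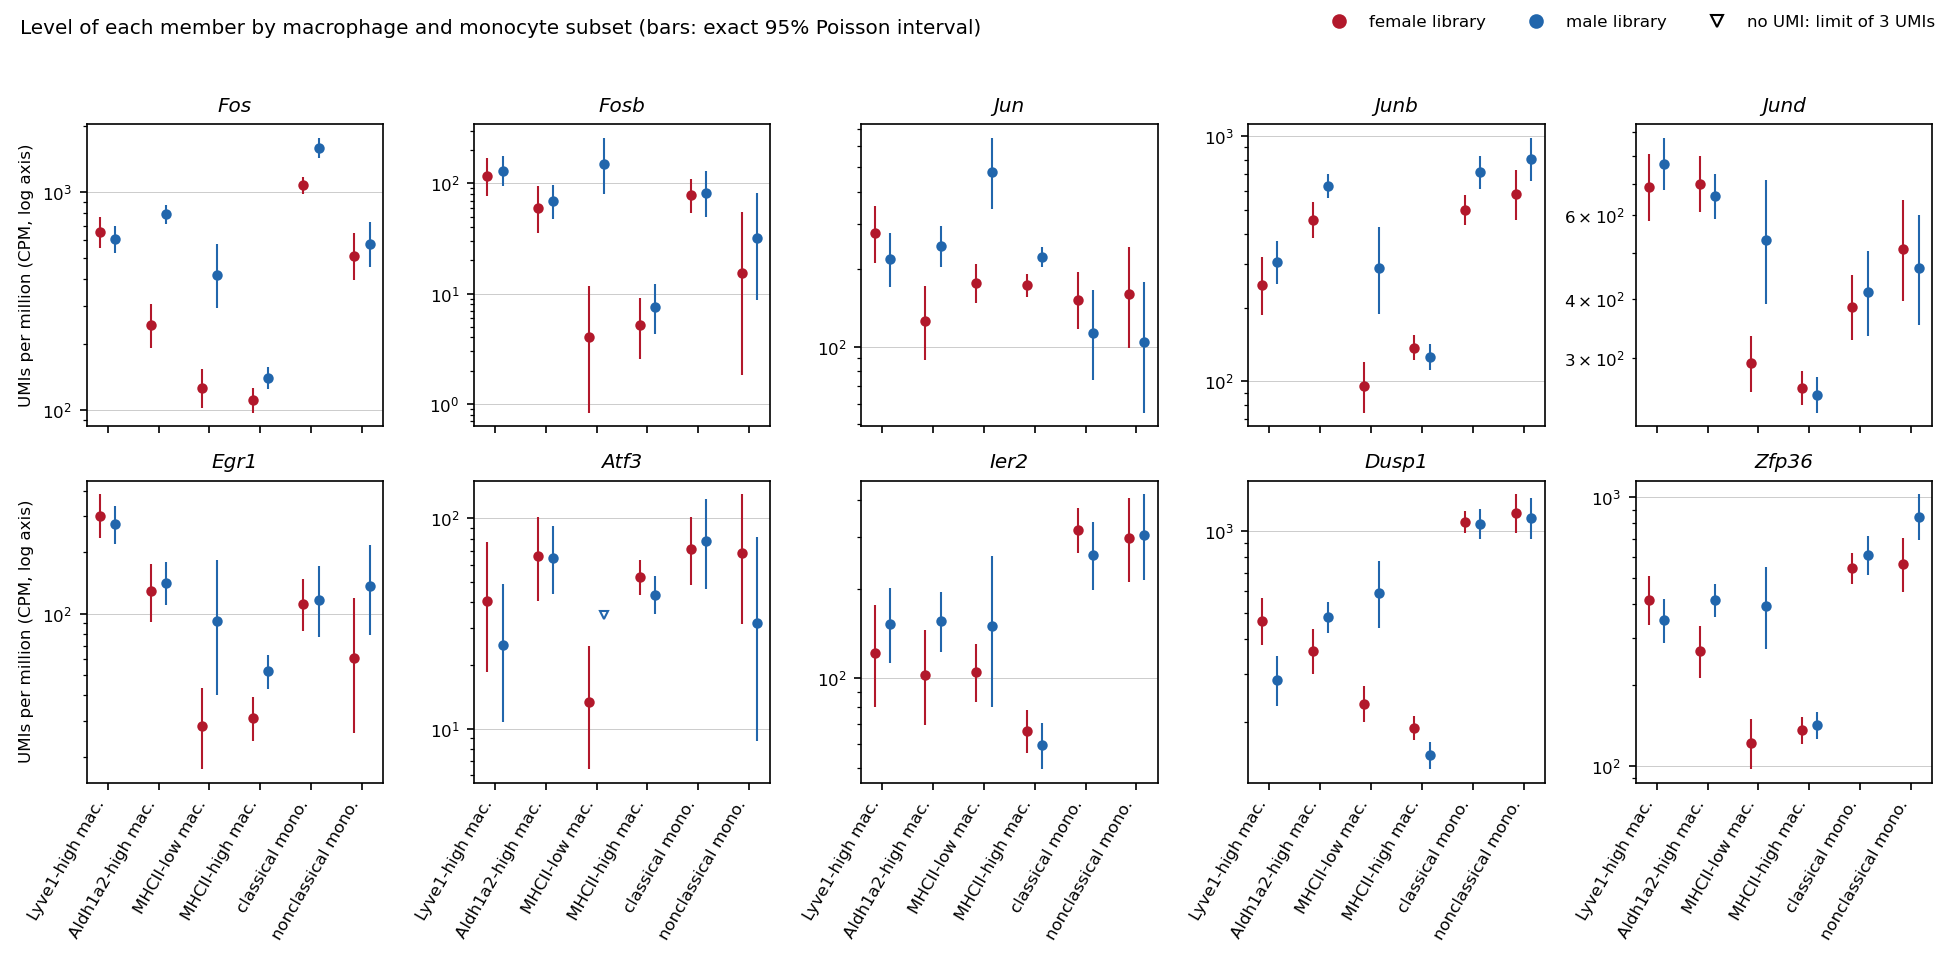
Level of each of the 10 genes in CPM (log axis) in 4 macrophage and 2 monocyte subsets of the female and the male library, with exact Poisson 95% intervals; a value of 0 is drawn at the level of 3 counts. Fosb in Lyve1-high cells reaches 117 and 131 CPM against 5.15 and 7.55 in MHC class II high cells, and classical monocytes have the highest Fos level of the 6 subsets in both libraries.

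Aldh1a2-high cells were also past 2-fold higher than MHC class II high cells for 5 genes (2.05% of genes), Fosb at 11.5 (5.16 to 27.0) and 9.11 (4.87 to 17.7), Junb at 3.32 (2.69 to 4.08) and 5.00 (4.22 to 5.91), Egr1 at 4.16 (2.73 to 6.28) and 2.71 (1.97 to 3.69), Fos at 2.20 (1.67 to 2.87) and 5.63 (4.83 to 6.58) and Jund at 2.70 (2.30 to 3.17) and 2.63 (2.28 to 3.03). Without the 5 cells holding most UMIs of each gene, or with 50 CPM added in place of 10, 2 genes were past 2-fold, and with the mean of per-cell CPM 8 were. The shares of all genes under these alternatives are not given here, so these counts show only that the 5 depends on the processing. Junb was higher in this subset than in Lyve1-high cells, at 456 (383 to 538) and 627.5 (559 to 703) CPM against 248 (187 to 322.5) and 308 (250.4 to 375). No member differed past 2-fold in both libraries between Lyve1-high and Aldh1a2-high cells (2.26% of genes were higher and 1.06% lower), although the ratio for Junb was 0.544 (0.390 to 0.748) and 0.491 (0.387 to 0.618). Between MHC class II low and high cells, Atf3 alone was counted as lower (0.235% of genes). It stood at 13.5 (6.45 to 24.8) against 52.5 (43.2 to 63.1) CPM in the female library. In the male library it had 0 of 86256 UMIs in the low cells, which allows up to 34.8 CPM, against 43.4 (35.0 to 53.3) in the high cells, so a 2-fold difference was not detectable there at this depth. No member was past 2-fold higher in MHC class II low cells in both libraries (0.159% of genes were). In the male library 8 of the 10 genes were at least 2-fold higher in them, where 9.47% of genes were, against 0 in the female library (0.462%), with Fos at 417 (292 to 578) CPM against 140.2 (125 to 157). The male values of these low cells come from 24 cells, 5 of which held 94.4% of the subset's male Fos UMIs.

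The monocyte types were compared gene by gene. Classical monocytes were past 2-fold higher than nonclassical ones for 2 genes (2.17% of genes), Fos at 2.10 (1.62 to 2.76) and 2.77 (2.15 to 3.62), from 1071 and 1594 CPM against 510.3 and 576, and Fosb, which rested on 2 and 4 nonclassical UMIs. Dusp1 was nearly the same in both, at 1076 (979 to 1179.6) and 1060.0 (931 to 1202) and, in nonclassical cells, 1158 (981 to 1357) and 1112 (935 to 1313), and Junb gave a ratio of 0.866 (0.663 to 1.14) and 0.882 (0.684 to 1.14). Type 2 dendritic cells were higher than type 1 for Zfp36, at 2.09 (1.38 to 3.23) and 3.45 (2.10 to 5.94), and for Atf3, with 21 and 16 UMIs against 1 and 3 (6.08% of genes). For Fos the type 2 to type 1 ratio was 0.780 (0.554 to 1.10) and 0.547 (0.394 to 0.756).

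Whether the genes were switched on together in single cells was read from cells thinned to 1000 UMIs, counting the cells with a UMI of both genes against the number expected if the 2 were independent. Of 45 possible pairs, 22 had at least 5 cells expected in macrophages of both libraries, and 15 of these were found together in both at more than 25% above that number. Of all gene pairs tested in macrophages, 3.49% were. The 3 pairs with the highest mean ratio all held Fos. Fos and Dusp1 were found together in 29 cells against 11.04 expected (ratio 2.63) in the female library and 46 against 15.7 (ratio 2.93) in the male library. For Fos and Zfp36 the counts were 27 cells against 9.40 expected (ratio 2.87) in the female library and 56 against 21.4 (ratio 2.61) in the male library. Fos and Junb gave ratios of 2.47 and 2.71, Dusp1 and Zfp36 1.87 and 2.47, and Jund and Egr1 1.69 and 2.02. The pairs Jun with Ier2, at 1.54 and 0.988, and Junb with Ier2, at 0.965 and 1.74, were past the threshold in 1 library only. The correlations were moderate, with Fos and Zfp36 highest at 0.36 over 778 female and 0.42 over 756 male cells, which share a library, a depth and the class.

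**Figure D4:**
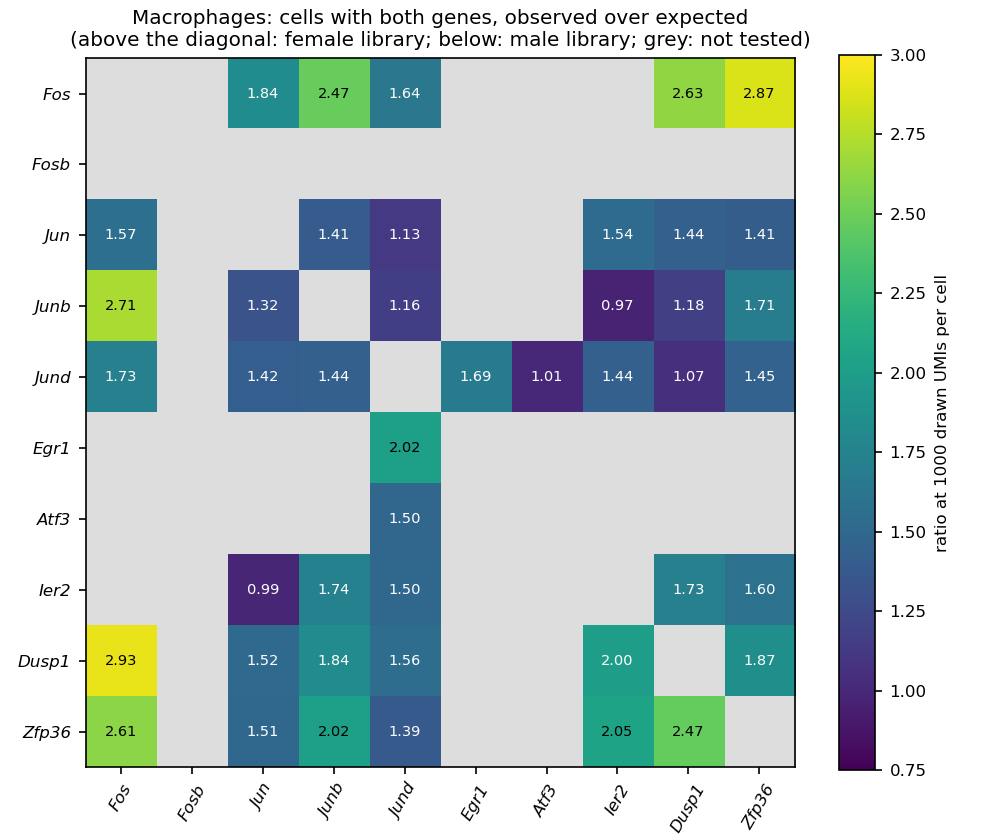
Ratio of observed to expected cells with both genes of a pair in macrophages thinned to 1000 UMIs, drawn as a gene by gene matrix. Female ratios lie above the diagonal and male ratios below it, for the pairs with at least 5 expected cells in both. Grey marks pairs not tested. Of 22 pairs, 15 lie more than 25% above expectation in both libraries, and those of Fos with Dusp1, Zfp36 or Junb have the highest mean ratios.

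The count was lower within single macrophage subsets, where fewer pairs could be tested. Within MHC class II high macrophages 4 of 11 testable pairs were past the threshold (2.87% of all pairs), within Lyve1-high cells 1 of 5 (1.23%) and within Aldh1a2-high cells 1 of 3 (1.74%). The MHC class II high pairs were Dusp1 with Zfp36 at 2.27 and 2.24, Junb with Zfp36 at 1.74 and 1.82, Jun with Junb and Jun with Dusp1. The Lyve1-high pair was Fos with Zfp36, at 2.01 and 2.04. In monocytes 5 of 18 pairs were past it (2.07%), among them Fos with Dusp1 at 1.31 and 1.68 and Junb with Egr1 at 1.61 and 1.67. The monocyte count changed with the random draw, from 5 to 9 pairs in a second draw, for which the share of all pairs is not given here. In dendritic cells 2 of 3 pairs were (1.59%), Fos with Jund at 1.76 and 1.56 and Fos with Junb at 1.69 and 1.70.

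In lymphocytes 3 pairs of 23 were past the threshold, 5 of 24 with a second random draw and 9 of 40 with 2000 UMIs drawn. The shares of all pairs under the other draws are not given here, so these counts show only that the 3 depends on the draw. No pair of 7 was past the threshold in T cells (2.95% of all pairs), 1 of 6 in B cells (2.31%), Fos with Jund at 1.44 and 1.30, and 2 of 10 in NK cells (2.03%), Junb with Ier2 at 1.505 and 1.35 and Fosb with Jund. In neutrophils 0 of 4 pairs were (1.23%). Genes found in nearly every neutrophil, such as Fos, Junb and Dusp1, could not pass the ratio and were left out of this count. By UMIs rather than detection, neutrophils with more Dusp1 also held more Junb, with a correlation of 0.66 over 40 female and 0.68 over 43 male cells, and more Fos, with 0.68 and 0.67. For Fos and Junb it was 0.44 and 0.72. These cells share a library, a depth and the class.

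Between the libraries, levels tended to be lower in the female one. Of 65 ratios of a gene in a class that reached 50 UMIs in at least 1 library, 51 had the female below the male level, where 56.6% of the 27352 ratios of all genes did. For 27 the exact 95% interval of the ratio lay below 1 (10.7% of all) and for 4 above 1 (6.31%). On the log2(CPM + 10) scale 3 were past 2-fold (0.589%), which became 5 with no mitochondrial ceiling or no doublet removal and 8 with no filter on low counts. The shares of all ratios under these alternatives are not given here, so these counts show only that the 3 depends on the processing. Fosb in NK cells, at a ratio of 0.460 (0.339 to 0.624), was not past 2-fold on that scale. In ILC2 1 of 4 members lay below the male level and 3 above it, and 35.8% of all genes tested there were lower in the female library. In macrophages, where all 10 genes reached 50 UMIs in both libraries, 8 were lower in the female library and none was past 2-fold (0.344% of 6980 genes were past 2-fold lower). Of all genes tested in macrophages 60.3% were lower in the female library, by a median of -0.05 on the log2 scale. Fos had the lowest female to male ratio beside Fosb, at 0.541 (0.486 to 0.602), and Fosb stood at 0.504 (0.360 to 0.700). Dusp1 at 1.02 (0.922 to 1.13), Atf3 at 1.03 (0.812 to 1.31) and Ier2 at 0.930 (0.784 to 1.10) did not differ beyond counting error.

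The Fos difference in macrophages was not spread evenly over the subsets. It was 244 and 790.1 CPM in Aldh1a2-high cells, a ratio of 0.309 (0.238 to 0.398), past 2-fold (1.15% of genes). In Lyve1-high cells the levels were 653 and 609.8 CPM, a ratio of 1.07 (0.858 to 1.33), and in MHC class II high cells 111 and 140.2, a ratio of 0.792 (0.665 to 0.942). MHC class II low cells gave 126.5 and 417 CPM, a ratio of 0.303 (0.204 to 0.458), and 5 of 7 members with enough UMIs were past 2-fold lower in the female library there (3.25% of genes), with 24 male cells. The subsets also held different shares of macrophages in each library, so the value for all macrophages depends on their mix. With the 4 subsets weighted alike, an alternative chosen after seeing the data, the Fos difference was -0.77 on the log2 scale against -0.85 for all macrophages.

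In neutrophils Egr1 was past 2-fold lower in the female library (3.20% of 281 genes), at a ratio of 0.444 (0.345 to 0.567), and Fosb followed at 0.502 (0.343 to 0.723). Fos at 0.899 (0.803 to 1.01), Dusp1 at 1.07 (0.973 to 1.19) and Zfp36 at 0.919 (0.790 to 1.07) did not differ beyond counting error. In ILC2 Dusp1 was past 2-fold higher in the female library (1.74% of 402 genes), with 55 UMIs in 54 cells against 6 in 33, a ratio of 6.18 (2.66 to 17.6). In endothelial cells Jund was past 2-fold lower (3.08% of 389 genes), with 21 against 56 UMIs. The Dusp1 and Jund ratios entered through 1 library alone, the one in which the gene was high. With 1 library per sex, sex, animals and library preparation cannot be told apart in any of these differences.

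**Figure D5:**
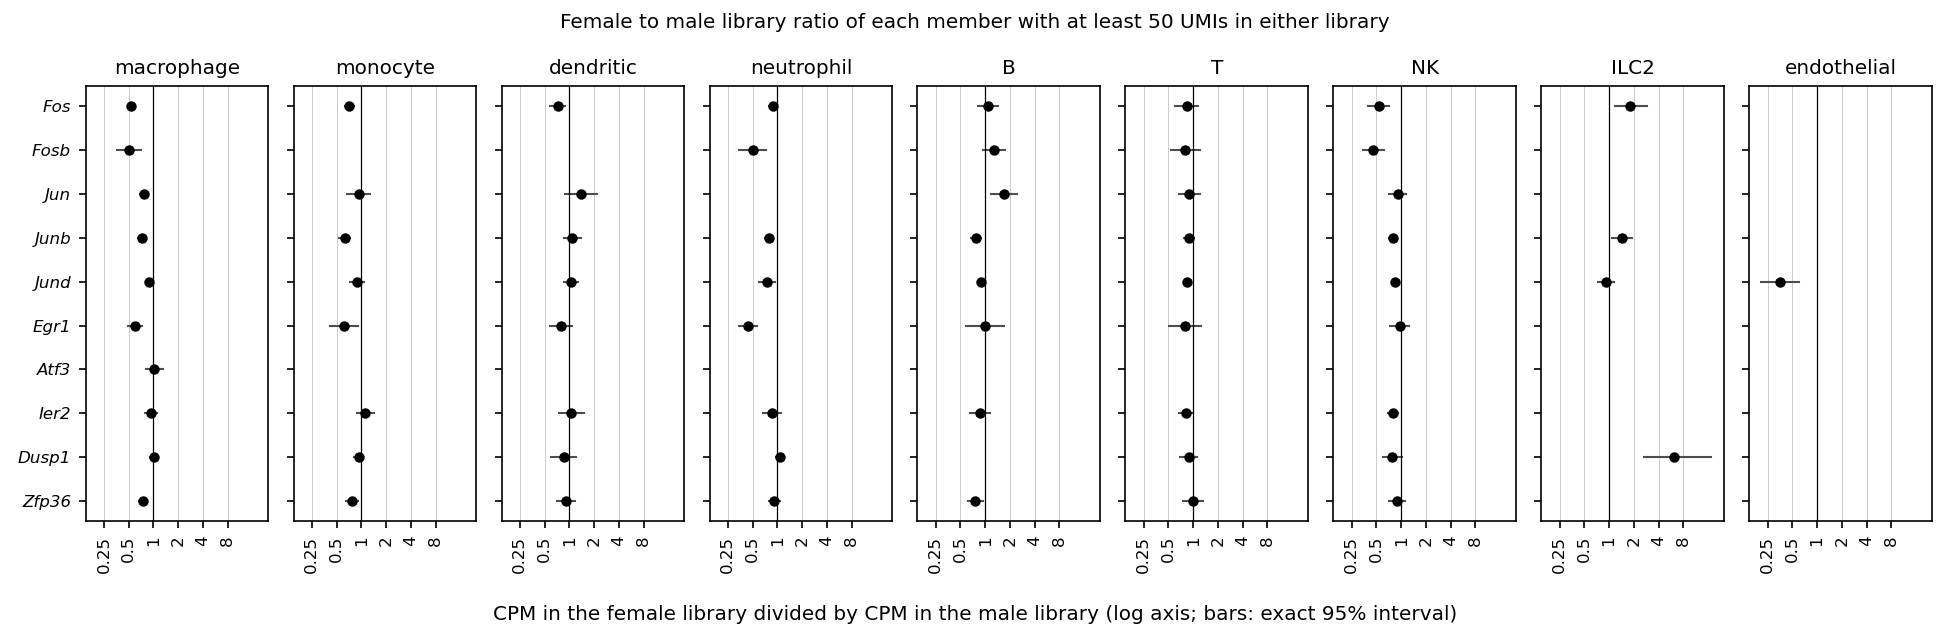
Female to male ratio of the CPM level (log axis) of each gene by cell class, with exact 95% intervals, for genes that reached 50 UMIs in at least 1 library. In macrophages 8 of 10 genes lie below 1. On the log2(CPM + 10) scale the points past 2-fold are Egr1 in neutrophils, Dusp1 in ILC2 and Jund in endothelial cells. Fosb in NK cells, at a ratio of 0.460 (0.339 to 0.624), is not past 2-fold on that scale.

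Other genes of the same pathways were read from 8 lists, drawn up like the members with earlier results of these data known. Among other immediate early genes, 13 of 22 listed had enough UMIs for neutrophils against macrophages, and 10 were past 2-fold higher and 2 lower, where 7.60% and 28.4% of 6314 genes were. Their median difference was 2.79 on the log2 scale, against -0.74 over all genes tested. Klf2, a quiescence and trafficking factor, stood at 2969 and 2851 CPM in neutrophils and 135.5 and 163 in macrophages, and Btg1, an antiproliferative gene, at 2752 and 2688 against 203 and 209. The 2 lower genes were Myc and Ccn1. Of NF-kappaB feedback genes 5 of 8 were higher and none lower, with a median of 2.30. Tnfaip2 stood at 1038 and 1227.5 CPM against 58.7 and 76.5, and Nfkbia, the inhibitor that NF-kappaB itself induces, at 591 and 679.7 against 165 and 112. Ier3 is on both lists.

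Of 5 other lists the medians lay between 0.13 and 0.74 on the log2 scale, also above that of all genes, with fewer members past 2-fold. No difference between lists was tested. All counts in this paragraph stand beside 7.60% of all genes higher and 28.4% lower. Of the other AP-1 and ATF genes 1 of 8 was higher in neutrophils, Fosl2, and those that were lower included Batf3 and Maf. Of ERK and MAPK phosphatases and feedback genes none of 5 was higher and 2, Spred1 and Spred2, were lower. Dusp6 stood at 193 and 304 against 185 and 219 CPM. Of 3 genes tested on a list of mRNA decay factors, 1 was higher, Pnrc1, a nuclear receptor coactivator that is not a relative of Zfp36, and the relative Zfp36l2 stood at 712 and 832 against 536 and 488. Of ERK pathway genes and SRF cofactors 2 of 9 were higher, Mrtfa and Mapk3, and 2 were counted as lower, Elk3 and Mrtfb. Elk3 had 0 UMIs in neutrophils of both libraries, against 55.5 and 65.8 CPM in macrophages. The exact Poisson 95% intervals of these zeros reach 44.5 and 37.4 CPM, a wider limit than the floor of 3 counts used elsewhere. A 2-fold difference of Elk3 was thus not detectable at this depth, at least in the female library.

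Of 11 heat shock genes, which mark proteotoxic stress, none was higher in neutrophils and 8 were lower, where 7.60% and 28.4% of genes were. Their median was -2.04 on the log2 scale, against -0.74 over all genes. Hspa8 stood at 362 and 396 CPM in neutrophils and 1378.5 and 1436 in macrophages, and Hsp90ab1 at 205 and 122 against 1328.5 and 1096. Glucocorticoid-induced genes, of interest in the organ that makes the hormone, gave 2 of 5 higher, Tsc22d3 and Cebpd, and 1 lower, Fkbp5, beside the same shares of all genes, with a median of 0.74. Tsc22d3 stood at 1581 and 1461 CPM against 362 and 212. Across single macrophages the summed members and heat shock UMIs were not related, with a correlation of -0.01 over 778 female and 0.01 over 756 male cells.

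For monocytes against macrophages, 5 of 13 other immediate early genes were higher (Btg1, Klf2, Klf4, Nr4a1 and Mcl1) and 2 lower, beside 4.03% and 6.50% of 6309 genes. None of 11 heat shock genes was higher or lower. NK cells, lower than the other classes for 5 members, were higher for 4 of 20 other immediate early genes, Egr3, Nr4a2, Nr4a3 and Myc, and lower for 4, Ier3, Klf4, Rhob and Trib1, where 5.01% and 5.41% of genes were. The median of that list was -0.39 on the log2 scale, against 0.20 over all genes tested. For Lyve1-high against MHC class II high macrophages, 2 of 10 were higher, Klf2 and Klf4 (4.26% of 4696 genes), together with Maf among the AP-1 genes and Zfp36l1 among the decay factors. Klf2 and Klf4 were also the 2 of 10 that were higher in Aldh1a2-high cells (2.03% of 4688 genes).

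The genes most like the members across the 9 classes of both libraries (18 points, 9433 genes, Pearson correlation of log2(CPM + 10)) were in part other members. Zfp36 was the second gene most like Fos, at 0.95, after Rasgrp4 at 0.96. Junb was the gene most like Fosb, at 0.92, and most like Ier2, at 0.93, and Btg2 the one most like Junb, at 0.95. Sirpb1b was closest to Dusp1 at 0.97, Pira2 to Zfp36 at 0.97, Tctex1d2 to Atf3 at 0.95, Mcfd2 to Jun at 0.93, Orai1 to Egr1 at 0.93 and Pim1 to Jund at 0.86. The highest member pairs were Fos with Zfp36, Junb with Ier2 and Fosb with Junb, at 0.95, 0.93 and 0.92. Without the neutrophil points these pairs gave 0.898, 0.74 and 0.79. The points share a library and a class in sets, so these values describe the order of classes only.

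Within classes the likeness was weak. In macrophages the genes that went most with the summed members were Ahnak, at 0.22 and 0.35 over 778 and 756 cells, Fn1 at 0.21 and 0.32, Retnla at 0.18 and 0.31, Gda, Pltp and Cebpb, and Fn1 and Retnla are among the genes that gated the Aldh1a2-high subset. In NK cells they were Ccl3, at 0.26 and 0.18 over 795 and 321 cells, Klf2 and Ccl4, which encode chemokines and a trafficking factor. In T cells Id2 led, at 0.17 and 0.15 over 700 and 375 cells, and in B cells Vim, at 0.12 and 0.22 over 503 and 252 cells, followed by Cd69, an early activation antigen, at 0.15 and 0.17. The cells share a library and a depth of 1000 UMIs.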

How the data were processed

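CD45+ cells of the adrenal glands of female and male mice gave 1 library each. The deposited matrices hold raw UMI counts per gene and barcode, made by the authors with Cell Ranger 4.0.0 (per the file headers) against mm10 and filtered with DropletUtils 1.4.3, both per the labels. They were not normalized. The 10 genes and all gene lists were chosen with earlier results of these data known.

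Barcodes with at least 200 genes and at most 15% mitochondrial UMIs were kept. A ceiling of 1.2%, the number in the study's methods, kept 333 female and 366 male barcodes here, far fewer cells than those methods state, so its unit is uncertain and it served only as an alternative. Scrublet in scanpy 1.11.5 marked 1 female and 8 male barcodes at its automatic threshold, so the highest scores were removed at 0.8% per 1000 barcodes (123 and 53 after the other filters). A cell joined a class if it held a UMI of at least 2 markers and at least 20% of that class's marker list, with a lead of at least 10 percentage points over the next class. Subsets needed at least 2 markers and a larger share of them than the other subset, T cell subsets a UMI of Cd4, of Cd8a or Cd8b1, or of 2 gamma delta genes, and MHC class II low cells had at most 10 UMIs of 4 class II genes per 1000. UMIs were summed by class and given as CPM, with exact Poisson intervals, exact binomial intervals for shares and exact conditional binomial intervals for ratios, all at 95%. Floors for a count of 0 are 3 counts. PCR duplicates had been collapsed by UMI, but cells of 1 library are not replicates, so no p-value was computed. Comparisons used log2(CPM + 10), genes with at least 50 UMIs where a filter is named, and 2-fold in both libraries as the threshold. The contrasts and pair counts were tested on simulated data. The values of a gene of the AP-1 and ATF list are not reported here.

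All 10 members are named with values. Beyond them the text names the 3 genes most like each member across classes (the first of them, and members) and the 10 most like their sum within the 4 largest classes (the leading ones). It also names most of the 2 with the highest level in each list, and some listed genes past 2-fold, chosen after their values were seen. Alternatives covered the mitochondrial ceiling, doublets, gates, graph clusters, scaling, the constant added, the draw, the thresholds and the cells with most UMIs. Python 3.11.15, numpy 2.4.6, scipy 1.17.1 and pandas 2.3.3 were used.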

Additional observations from a re-analysis of the deposited data

Results flagged for a closer look

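Some contrasts pointed in opposite directions in the female and the male library, beyond counting error in each. None of these differences between the libraries was tested, since each sex is 1 library. The ratio of MHC class II low to high macrophages for Junb was 0.696 in the female and 2.31 in the male library, where the male low cells numbered 24. The ratio of Lyve1-high to Aldh1a2-high macrophages for Fos was 2.67 and 0.772. The ratio of conventional to ILC1-like NK cells for Egr1 was 2.06 and 0.551.

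The female to male ratio also pointed in opposite directions between classes. For Fos it was 1.81 in ILC2 and 0.533 in NK cells, for Jun 1.68 in B cells and 0.762 in macrophages, and for Junb 1.44 in ILC2 and 0.626 in monocytes. These differences between classes were not tested.

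The 10 genes were also counted in cells that entered no comparison. They made up 0.0324% of the UMIs of plasmacytoid dendritic cells in the female library (16 cells) and 0.337% in the male library (7 cells). In mast cells or basophils they made up 0.433% (24 cells) and 1.16% (8 cells). In cells that met no gate they made up 0.238% and 0.374%.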

How the results depend on the processing

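No paired analysis was possible because each sex is 1 library, and no library could be left out for the same reason. Of 122 counts recomputed under alternatives, 95 stayed within 1.5 times the main count and 27 moved. Of 500 single log2 differences, 424 stayed within the exact counting interval of the main value and 76 did not. Where each library gave an interval, the outer bounds of both were used. These intervals cover counting error only. None of the called values moved to the other sign, and all 285 alternatives of the 30 differences past 2-fold kept their sign. The counts of neutrophils against macrophages (9), monocytes against macrophages (6) and Lyve1-high against MHC class II high macrophages (5) stayed within 1.5 times under every alternative run, and the last could not be computed with the mitochondrial ceiling of 1.2%.

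The 18 higher and 22 lower values of a gene in a class against the other classes became 8 and 10 with the mitochondrial ceiling of 1.2%, under which dendritic cells, B cells, NK cells, ILC2 and endothelial cells had too few cells to be compared. With the linear mean of the other classes they became 10 and 48, and without neutrophils the lower ones became 13, both alternatives chosen after seeing the data. The 3 values past 2-fold between the libraries became 5 with no mitochondrial ceiling, 5 with no doublet removal, 8 with no filter on low counts and 13 at 1.5-fold. The 5 genes higher in Aldh1a2-high than in MHC class II high macrophages became 8 with the mean of per-cell CPM, 2 without the 5 cells holding most UMIs of the gene and 2 with 50 CPM added. Where no share of all genes is given above for an alternative, its count shows only a dependence on the processing.

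The 15 macrophage pairs of 22 became 8 of 9 with 500 UMIs drawn, and 1 of 5, 1 of 3 and 4 of 11 within the Lyve1-high, Aldh1a2-high and MHC class II high subsets. The 5 monocyte pairs of 18 became 8 with no mitochondrial ceiling, 10 of 22 with graph clusters, 3 of 25 with 2000 UMIs drawn, 9 with a second random draw and 1 at a ratio of 1.5. The 3 pairs of B, T and NK cells together became 5 with a 5% ceiling, 6 with no ceiling, 5 with no doublet removal, 9 of 40 with 2000 UMIs drawn, 5 with a second random draw and 0 at a ratio of 1.5. The causes were not tested. Except within the macrophage subsets, the shares of all pairs under these alternatives are not given here, so the counts show only a dependence on the processing. With the ceiling of 1.2%, macrophage pairs and those of lymphocytes could not be computed for lack of cells.

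Depth limits the smallest groups most. Neutrophils held 82850 and 98571 UMIs in all, so a count of 0 there allows up to 36.2 and 30.4 CPM.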
